A study of Homo sapiens with 5 samples.

Results

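The genes of the SIX-family, EYA and DACH network were followed in IMR32, an established human neuroblastoma line, while a hairpin RNA against the homeobox gene MEIS1 was switched on. The 9 genes are SIX2, SIX3, SIX4 and SIX5, EYA1, EYA2, EYA3 and EYA4, and DACH1, out of 19775 genes named by the platform annotation. Every probe set annotated to them was taken, 23 in all. The set was proposed with earlier results of these arrays known, in particular the opposite courses of SIX3 and EYA1 over time, so the courses of these 9 genes are given as a description and were not tested. The cells carried a stable, doxycycline-inducible short hairpin (shRNA) specific for MEIS1b. The labels put 1 Affymetrix U133 Plus 2.0 array of total RNA at 0 h without doxycycline, and 1 each at 24, 48, 96 and 192 h with it. All 5 groups share the cell line and the integrated hairpin; whether the line was 1 clone or a pool is not stated in the labels. An induced array of cells without the hairpin, and a later array of uninduced cells, were not analysed here, so time in culture, doxycycline and the hairpin cannot be told apart. With 1 RNA sample per time, no difference between 2 arrays has a replicate check.

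SIX-family proteins are homeodomain transcription factors that bind DNA, and many of them recruit EYA proteins, which do not bind DNA themselves but carry an activation domain and a protein tyrosine phosphatase domain. DACH proteins bind chromatin and corepressors and modulate the output of SIX-family and EYA proteins, and PAX factors act upstream of or beside them in the eye, ear, kidney, muscle and sensory placodes. The network is conserved from the fly, where its genes (sine oculis, eyes absent, dachshund and the PAX gene eyeless) were found through loss of the compound eye. Neuroblastoma arises from the sympathoadrenal lineage of the neural crest, and SIX3 and EYA1 are among the transcriptional regulators assigned to its adrenergic state.

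Promoter windows running from 250 bases before to 50 bases after the annotated start were taken from RefSeq (GRCh38.p14), and 5 of the 9 genes matched an entry (SIX2, SIX4, EYA3, EYA4 and DACH1). Because the hairpin was directed against MEIS1, they were searched on both strands for TGACAG, the core that MEIS factors recognise. It was present in the windows of SIX2 and DACH1, 2 of the 5, and in 15.8% of all 35116 RefSeq windows of this length. The longer PBX-MEIS composite TGATTGAC (0.575% of all windows) and the MEF3 core bound by SIX-family factors, TCAGGTT (3.37%) were in none of the 5. The windows shown are those of the 2 genes with the core, whose brightest probe sets changed little, and that of EYA4, the gene with a window whose signal was highest over its 0 h value at 192 h. Capitals mark TGACAG, or CTGTCA where the core lies on the opposite strand. A match is only a match of letters.
SIX2 (GRCh38.p14, chr2:45009403-45009702, minus strand): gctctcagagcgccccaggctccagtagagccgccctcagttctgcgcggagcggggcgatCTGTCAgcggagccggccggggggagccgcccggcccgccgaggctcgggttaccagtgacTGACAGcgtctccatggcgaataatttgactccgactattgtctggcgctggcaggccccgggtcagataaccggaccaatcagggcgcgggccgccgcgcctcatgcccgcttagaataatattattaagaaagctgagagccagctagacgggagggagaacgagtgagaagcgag
DACH1 (GRCh38.p14, chr13:71867155-71867454, minus strand): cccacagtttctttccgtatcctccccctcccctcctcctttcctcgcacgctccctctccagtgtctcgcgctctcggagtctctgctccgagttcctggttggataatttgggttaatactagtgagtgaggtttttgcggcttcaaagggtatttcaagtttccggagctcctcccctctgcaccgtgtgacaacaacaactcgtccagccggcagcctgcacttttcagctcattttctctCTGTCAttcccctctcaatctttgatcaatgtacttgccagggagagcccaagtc
EYA4 (GRCh38.p14, chr6:133241107-133241406, plus strand): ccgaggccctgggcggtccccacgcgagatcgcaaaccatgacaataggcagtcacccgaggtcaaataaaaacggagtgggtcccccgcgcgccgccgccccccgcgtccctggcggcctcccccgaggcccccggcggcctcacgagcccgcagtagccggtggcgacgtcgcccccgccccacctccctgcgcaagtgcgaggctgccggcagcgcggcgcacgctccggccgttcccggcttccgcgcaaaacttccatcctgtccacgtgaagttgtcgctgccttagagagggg
The SIX2 window holds 2 matches, 1 on each strand, and the DACH1 window holds 1, on the opposite strand. The GC content of the windows was 64.0% for SIX2, 53.0% for DACH1 and 71.7% for EYA4, against a median of 58.7% over all windows. The EYA4 window holds 39 CG dinucleotides, SIX2 29, EYA3 25, SIX4 14 and DACH1 12, where the median window holds 14.

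The targeted gene was checked first. The brighter MEIS1 probe set read 1052.0, 851.5, 847.2, 857.0 and 786.6 at 0, 24, 48, 96 and 192 h, and the other read 597.2, 495.9, 560.4, 490.4 and 443.8. All 4 induced arrays lay below the 0 h array in both probe sets, and the dimmer one was at 74.5% of 0 h on the last array, on the scale described next. MEIS1 was not past the threshold of the trend used below (limma adjusted p = 0.251). Both probe sets are annotated to the gene MEIS1, and whether they follow the targeted MEIS1b in particular was not tested. Values are MAS5 signals, which have no absolute unit. Changes are given as differences of log2(signal + 4.7); the added 4.7 shrinks the changes of dim probe sets, and the levels of different probe sets cannot be set against each other. Of 7 adrenergic markers with a named probe set, 6 passed a filter on low signals (the 5-array mean had to reach 17.9, the overall median signal). Tyrosine hydroxylase (TH) was the exception, at 2.1 to 28.5, and the summed signal of the 7, carried mostly by MYCN and GATA3, was 8806.2 to 11037.3 on the 5 arrays. Single markers moved more than that sum: on the 96 h array HAND2 was 2.46-fold, ISL1 2.10-fold and DBH 1.90-fold over 0 h, and on the 192 h array HAND2 was 2.02-fold and DBH 0.762-fold of 0 h. No marker of Schwann cells (0 of 2), blood (0 of 3), epithelium (0 of 3) or retina and lens (0 of 2) passed it. CDH5 (12.3 to 36.6) was the 1 endothelial marker of 3, and CITED1 (131.6 to 176.9) the 1 kidney progenitor marker of 3, that did. Poly-A spike-ins differed from 0 h by a mean of 0.10, -0.45, -0.61 and -0.25 on the log2 scale at 24, 48, 96 and 192 h.

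Among the SIX-family genes, SIX3 was higher late in the course, SIX5 was lower at every induced time, SIX4 peaked at 48 h and SIX2 was nearly level. In bulk RNA a change in the share of cells that express a gene and a change of its level per cell cannot be told apart. SIX3 patterns the forebrain and the eye. Its brightest probe set, 242054_s_at, read 76.6, 100.8, 82.2, 185.2 and 247.5 at 0, 24, 48, 96 and 192 h. The first 3 arrays lay close together, and the 96 and 192 h arrays stood above all of them, 2.34-fold and 3.10-fold over 0 h. The second SIX3 probe set, 206634_at, read 39.2, 36.4, 35.6, 85.4 and 81.6 at the same times. It had the same break between 48 and 96 h (1.97-fold over 0 h at 192 h) but no further increase after 96 h. The third, 244288_s_at, was dim, at 1.0 to 12.9, and lay at the floor of 1 on 2 arrays. The fitted log2 change over the course, the slope per time step times 4 steps, was 1.65 ± 0.30 for the brightest probe set (SE from limma, 5 arrays), 1.23 ± 0.40 for the second and 1.14 ± 0.70 for the dim one. Spike-ins were lower than at 0 h on the 48, 96 and 192 h arrays. With the spike-in level in the fit the SIX3 change was 1.97. Whether the SIX3 course has a technical cause was not tested.

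SIX2, which maintains nephron progenitors in the mouse kidney, lies beside SIX3 on chromosome 2. Its brightest probe set, 206510_at, read 404.3, 382.0, 412.2, 395.0 and 410.7 at 0, 24, 48, 96 and 192 h, a range with no order in time. The fitted change was 0.04 ± 0.14, and 0.15 ± 0.18 in the other probe set (140.1 to 185.4). The sign for SIX2 turned when array medians were set equal (-0.07). The long non-coding SIX3-AS1, next to SIX3, has a probe set of its own that was barely above the filter at 12.9, 14.4, 22.3, 21.2 and 20.0, with a fitted change of 0.57 ± 0.46 (limma adjusted p = 0.606).

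SIX4, which acts in muscle and kidney development in mice, read 92.3, 99.8, 144.7, 107.4 and 93.3 in probe set 229796_at. The 48 h array alone stood out, at 1.54-fold over 0 h, and the 192 h array was back at the 0 h level. A straight line does not describe such a course: its fitted change was 0.05 ± 0.27, negative in 4 of 14 other settings, among them equal array medians (-0.05). The other SIX4 probe set (5.8 to 12.3) was below the filter and did not show the 48 h maximum. SIX5 encodes a homeodomain factor and lies beside DMPK, the myotonic dystrophy kinase gene. Its probe set 229009_at read 92.5, 50.7, 70.1, 58.9 and 46.4 over the same times. All 4 induced arrays lay below the 0 h array, the 24 h array already at 0.570-fold and the 192 h array at 0.526-fold. Its fitted change was -0.66 ± 0.32, and -0.23 without the 0 h array, so the value rests largely on that array. Both other SIX5 probe sets were below the filter; 241822_at read 23.1 at 0 h and 2.0 to 15.2 later, and 217661_x_at stayed at 1.4 to 3.1.

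**Figure D1:**
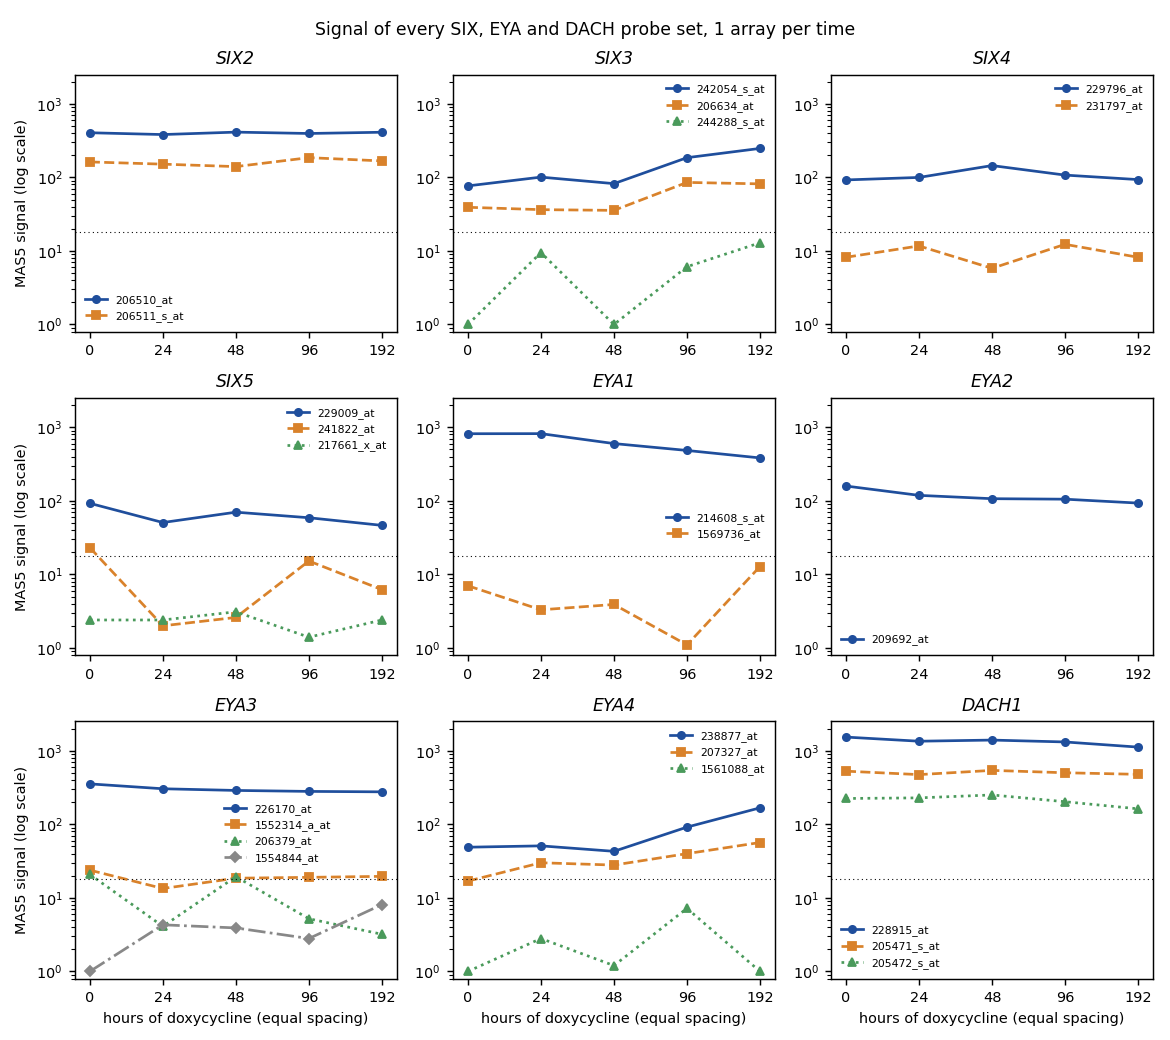
MAS5 signal (log axis) of all 23 probe sets of the 9 genes against hours of doxycycline, 1 array per point, time points spaced equally; the dotted line is the filter at a mean signal of 17.9. The 2 brighter SIX3 probe sets and the brightest of EYA4 step up between 48 and 96 h, the second EYA4 probe set is already higher at 24 h, EYA1 declines after 24 h, and the probe sets under the line scatter without a shared course.

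The EYA genes did not share a course: EYA4 was higher late, EYA1 and EYA2 were lower, and EYA3 was slightly lower. EYA1 is a phosphatase and coactivator whose loss in people causes branchio-oto-renal syndrome. Its bright probe set, 214608_s_at, read 817.0, 819.1, 600.4, 484.0 and 383.1 at 0, 24, 48, 96 and 192 h. The 24 h array was nearly equal to 0 h, and each later array was lower than the one before, down to 0.472-fold of 0 h. The fitted change was -1.17 ± 0.15, and -1.43 to -1.07 with any 1 array left out. The other EYA1 probe set, 1569736_at, was dim (1.1 to 12.8), with a fitted change of 0.28 ± 0.69 that tells neither direction.

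EYA2, a paralogue with the same domains, has 1 probe set, which read 158.9, 118.7, 106.9, 105.3 and 93.2. Each array was below the one before it, with the widest step in the first 24 h, and the 192 h signal was 0.598-fold of 0 h. Its fitted change was -0.66 ± 0.21, and -0.41 without the 0 h array. EYA3, the broadly expressed paralogue, read 354.2, 304.1, 288.5, 279.9 and 276.1 in 226170_at, also lower at each step but by little after 24 h. The fitted change was -0.33 ± 0.15, and -0.03 ± 0.47 in the second probe set above the filter (13.4 to 23.8). Leaving out the 0 h array brought the first to -0.18. Both dim EYA3 probe sets pointed opposite ways, -1.28 ± 0.79 and 0.83 ± 0.39. Of 9 genes, these 2 had a signal lower on each successive array in their brightest probe set; 2.18% of 11944 tested genes did, and none of the 9 was higher on each (2.33% of tested genes).

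EYA4, in which mutations cause late-onset deafness and cardiomyopathy, read 48.8, 50.9, 42.9, 91.5 and 167.3 in 238877_at. The arrays up to 48 h were close to each other, 96 h was above them and 192 h above that, at 3.21-fold over 0 h. A second probe set above the filter, 207327_at, read 16.9, 30.0, 27.9, 39.9 and 56.5 (2.83-fold), so it was already above 0 h at 24 and 48 h. The third (1.0 to 7.2) was at the floor on 2 arrays. Fitted changes were 1.66 ± 0.39 and 1.35 ± 0.34 for the probe sets above the filter. The first was 0.93 when the 192 h array was left out and 2.36 when the 0 h array was. It was 2.20 once the spike-in level entered the fit. On the log2 scale EYA4 238877_at gained 0.85 between 0 and 96 h and 0.84 between 96 and 192 h. The brightest SIX3 probe set gained 1.22 and 0.41. Over the same spans EYA4 207327_at gained 1.05 and 0.46, and the second SIX3 probe set changed by 1.04 and -0.06. The contrast between the genes thus depended on the probe set.

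**Figure D2:**
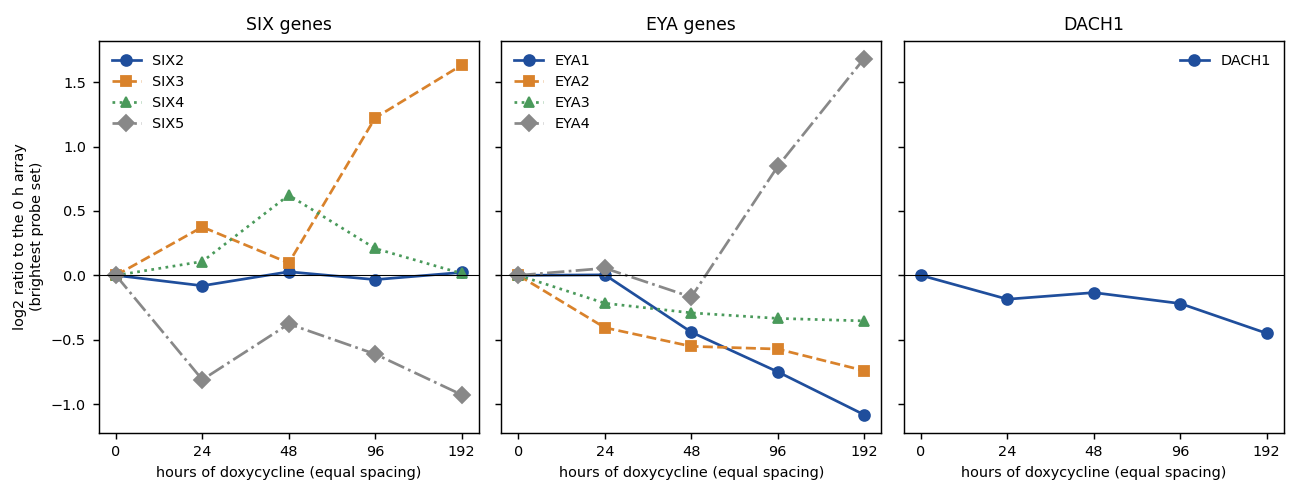
Log2 ratio of each array to the 0 h array for the brightest probe set of each gene, on log2(signal + 4.7), by family, against hours of doxycycline at equal spacing. SIX3 and EYA4 reach 1.63 and 1.68 at 192 h, EYA1 reaches -1.08, and SIX4 has its maximum of 0.62 at 48 h.

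DACH1, a corepressor-binding protein related in sequence to SKI and SKIL, was bright in all 3 of its probe sets. The brightest, 228915_at, read 1532.4, 1346.9, 1395.9, 1315.8 and 1120.2, with all induced arrays below 0 h and the lowest at 192 h (0.732-fold). The next, 205471_s_at, read 527.4, 473.5, 540.5, 501.8 and 477.6, and 205472_s_at read 224.3, 228.6, 250.5, 202.7 and 162.3. These 2 were not below 0 h at 48 h. The fitted changes were -0.37 ± 0.13, -0.08 ± 0.12 and -0.43 ± 0.19, the same sign at different sizes. DACH2, the other DACH gene, was at 1.0 to 5.3 on all arrays.

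Within the group of 9, 4 fitted changes were positive and 5 negative, with a median of -0.33, beside a median of 0.003 over all tested genes. Of the 23 probe sets 15 passed the filter on low signals, at least 1 for each gene, and 5 genes had several that passed. For all 5 of these the sign was shared between their probe sets above the filter. Some of these changes were smaller than their SE, so their sign tells little. They were those of SIX2 (0.04 ± 0.14 and 0.15 ± 0.18), EYA3 1552314_a_at (-0.03 ± 0.47) and DACH1 205471_s_at (-0.08 ± 0.12). At 192 h, 2 of the 9 genes were at least 2-fold over 0 h (SIX3 and EYA4), where 2.3% of tested genes were, and 1 was at least 2-fold under it (EYA1), where 1.93% were. At 96 h only SIX3 had passed 2-fold (2.2% of tested genes were that much higher and 1.18% that much lower). At 24 h none of the 9 had, where 0.678% of tested genes were 2-fold higher and 0.946% lower, and at 48 h none had either, where 1.08% were higher and 0.653% lower. The limma trend put 3 of the 9 past its adjusted threshold of 0.05 (SIX3, EYA4 and EYA1) and 3.47% of tested genes. That trend is what the set was chosen on, so nothing is read from the count. It was 0 of 9 without the filter and 0 of 9 without the trend in eBayes.

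**Figure D3:**
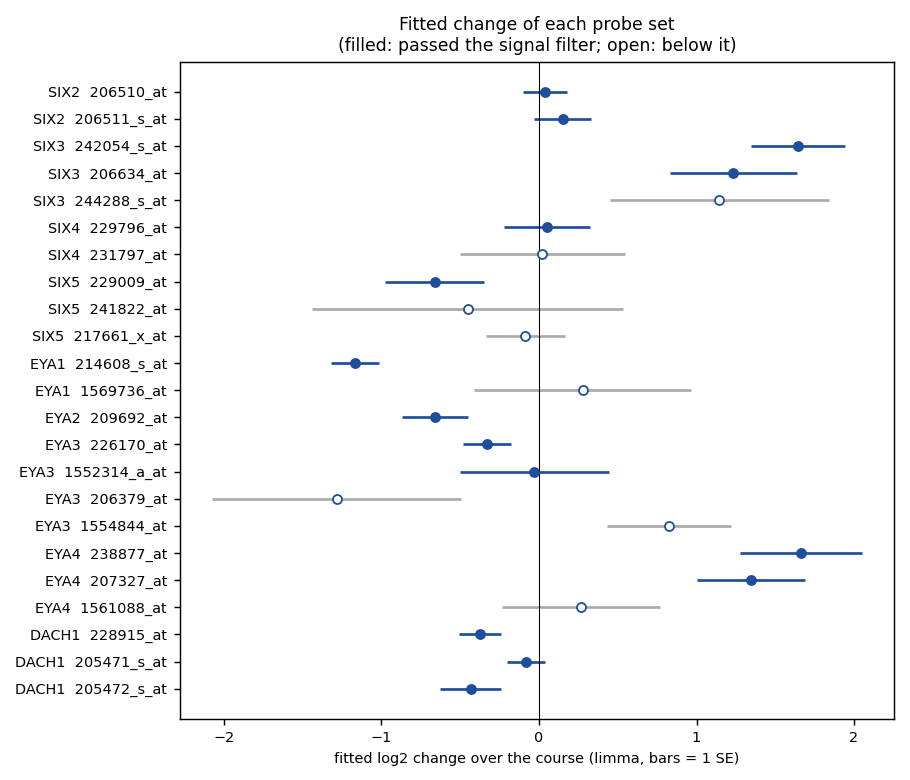
Fitted log2 change over the course for each of the 23 probe sets, with bars of 1 SE; filled points passed the signal filter and open points did not. The wide bars belong mostly to dim probe sets, and above the filter no gene has probe sets of opposite sign.

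The courses were compared through the root mean square difference of their log2 ratios to 0 h over the 4 induced arrays. SIX3 and EYA4 lay 0.28 apart, and SIX3 and EYA1, the most distant pair of the 36, lay 1.71 apart. The opposite courses of SIX3 and EYA1 were known when the set was chosen, so nothing is read from that rank. The closest pair was EYA3 and DACH1, at 0.11, both of small change. SIX5 and EYA2 were 0.24 apart and EYA1 and EYA2 0.29. EYA1 and EYA4, of one family, lay 1.60 apart, and the chromosomal neighbours SIX2 and SIX3 1.05. All of these distances use the same 0 h array.

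By the same measure, the 4 tested genes nearest to SIX3 were SNAP25, a SNARE of synaptic vesicle release, at 0.11, the histone gene H2AC6 at 0.15, the transcription factor gene ETS2 at 0.16 and the kinase gene CAMKK1 at 0.18. SNAP25 read 150.8, 198.8, 187.3, 370.3 and 471.8 at 0, 24, 48, 96 and 192 h, with the same gap between the first 3 arrays and the last 2. Genes near SIX3 or EYA1 were picked for a like course, so shared features follow from the choice. In all, 9 tested genes lay within 0.2 of SIX3 and 45 within 0.2 of EYA1. Nearest to EYA1 were PLSCR4, of the phospholipid scramblase family (0.08), PYGL, liver glycogen phosphorylase (0.09), PRX, the myelin-sheath protein periaxin (0.10), and the membrane protein gene EMP3 (0.10). EMP3 read 224.2, 214.8, 157.7, 127.2 and 90.6, and like EYA1 was close to its 0 h signal at 24 h. PRX, at 22.8 to 47.4, is known from Schwann cells; the Schwann markers SOX10 and S100B did not pass the filter.

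**Figure D4:**
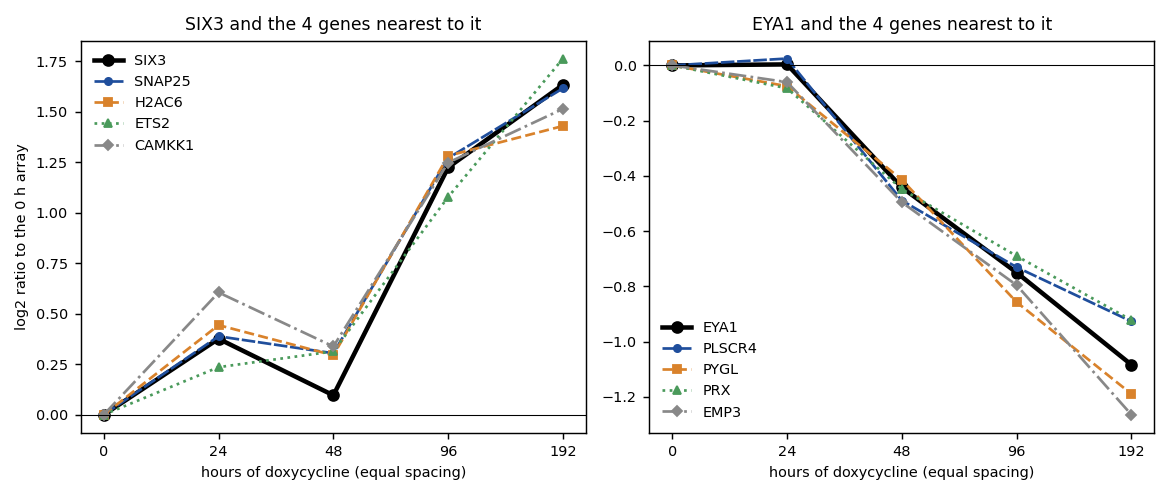
Log2 ratio to the 0 h array of SIX3 (left) and EYA1 (right) with the 4 tested genes nearest to each, at equally spaced times, 1 array per point. The genes drawn with SIX3 step up between 48 and 96 h, and those drawn with EYA1 decline after 24 h. They were picked for a like course, so the shared shape follows from the choice.

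Related genes were read in the same limma fit, with Benjamini-Hochberg adjustment over 11944 genes; 2.02% of all tested genes rose and 1.46% fell. Across lists of partners, targets and chromosomal neighbours, 36 of 96 genes were tested, 0 rose and 1 fell. The gene that fell was VEGFC, a growth factor of lymphatic vessels, from the list of reported targets of the network. Its signal was 95.0, 64.2, 63.7, 53.7 and 29.3 at the 5 times, below 0 h throughout and lowest at the end. The fitted log2 change was -1.34 ± 0.30 with a limma adjusted p of 0.0304. The lists were chosen with earlier results of these arrays known, so this p-value is no independent support. Leaving out the 0 h array gave -1.31 with an adjusted p of 0.244, and leaving out the 192 h array gave -0.93 with 0.22. The fitted change of VEGFC was again -1.34 without the filter on low signals (adjusted p = 0.188) and with eBayes without trend (0.0902). VEGFC was the 1 of 7 tested targets past the threshold (median of the 7 -0.07), with SALL1 at -0.41 (adjusted p = 0.429) and the cyclin gene CCNA1 at 0.38 (0.7) next in size. The list holds 15 targets, and those without a probe set above the filter were not tested. Among these was OSR1, which read 23.5, 15.6, 1.9, 2.3 and 2.9 at the 5 times.

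Of 4 tested PAX genes 0 passed (median -0.25). PAX5, a B-cell and midbrain factor, changed by 0.67 ± 0.32 in the fit (limma adjusted p = 0.316), and PAX1, of the sclerotome and thymus, by -0.54 ± 0.23 (0.245). SIX6, the eye paralogue of SIX3, was dim at 32.5, 29.4, 20.2, 20.9 and 19.9, with a fitted change of -0.64 ± 0.40 (limma adjusted p = 0.458), opposite in sign to SIX3. Among 12 tested cofactors and corepressors 0 passed, 6 changes were positive and 6 negative, and the median was -0.003. SKIL, which encodes a SKI-family corepressor, had the largest, -0.63 ± 0.21 (adjusted p = 0.13), with 685.2 at 24 h above its 541.5 at 0 h and 379.8 to 455.1 after that. SKI itself had 0.40 ± 0.32 (adjusted p = 0.601).

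EYA proteins remove a phosphate from a tyrosine of the histone variant H2AX, which the kinase encoded by BAZ1B puts on. H2AX read 658.0, 450.4, 472.2, 474.6 and 403.3 at the 5 times, lower on every induced array. Its fitted change was -0.53 ± 0.17 (limma adjusted p = 0.13; -0.67 and 0.0452 when the 24 h array was left out, -0.19 and 0.803 when the 0 h array was, so the size rests largely on the 0 h array), and that of BAZ1B was -0.21 ± 0.14 (0.49). None of the 4 tested genes of this list passed, and all 4 changes were negative, as were 49.7% over all tested genes.

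The 3 nearest genes on either side of each of the 9 gave 8 tested neighbours, of which 0 passed (median -0.03). Beside SIX4, MNAT1, an assembly factor of the CDK-activating kinase, had -0.50 ± 0.18 (limma adjusted p = 0.168). Around SIX5, where the 229009_at signal was lower, DMPK had -0.02 ± 0.24, DMWD -0.05 ± 0.22 and FBXO46 0.15 ± 0.26, with adjusted p of 0.985, 0.951 and 0.852. No neighbour of EYA1, EYA2, EYA4 or DACH1 within this distance was among the tested genes.

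**Figure D5:**
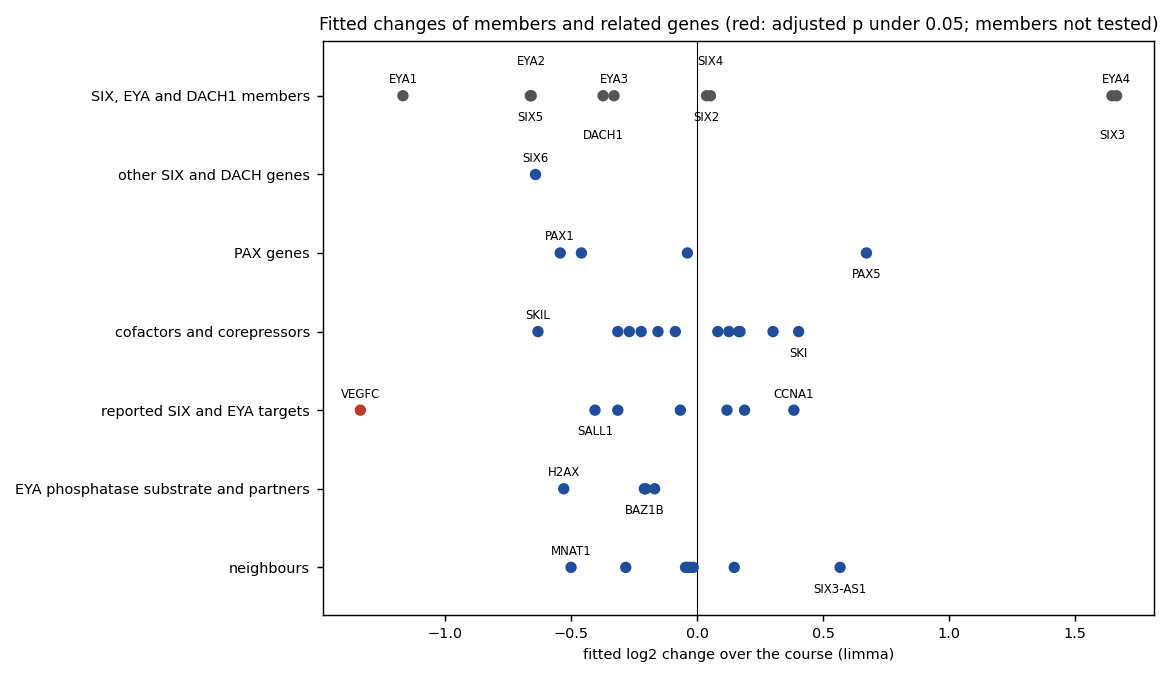
Fitted log2 changes of the brightest probe set for the 9 genes (grey, not tested) and for each tested gene of the related lists (blue, or red where the limma adjusted p is under 0.05). VEGFC at -1.34 is the 1 red point, and every other related gene lies between -0.64 and 0.67.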

How the data were processed

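The authors' deposited values are log2 of MAS5 signals, 1 column per array; MAS5 and GCOS are named per the submitters' processing notes, without versions, and the genome build is not given in the sources used here. That the values are log2 was read from them: raising 2 to each value gave multiples of 0.1 (tolerance 0.01) in 100.0% of cases, with a floor at 1, which held 5.34% to 8.15% of probe sets per array. Trimmed means (2% from each end) were 99.99 to 100.0 on every array, so no further scaling was applied. Precision is limited by the number of arrays, 1 per time.

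Signals were made linear, 4.7 was added (the median 25th percentile) and log2 taken. Control probe sets (62) were left out. A single gene was annotated to 41097 probe sets and more than 1 to 1801; 41043 of the first kind were found in RefSeq by gene identifier, with 0 symbols changed. The probe set with the highest mean stood for a gene, and genes with a mean of at least 17.9 were tested (11944). The slope on time step (0 to 4) was fitted with limma 3.58.1 in R 4.3.3, by lmFit and eBayes with trend=TRUE. Degrees of freedom were 3 residual and 9.07 prior. Tests were two-sided with Benjamini-Hochberg adjustment and a threshold of 0.05. The fit was also run on simulated data with straight-line changes and independent noise, which do not cover stepped courses or array-wide effects. With 1 array per time, p-values reflect no replicate spread. They rest on how far the 5 arrays scatter about a straight line, which limma draws toward the scatter of tested genes of similar signal. SEs of probe sets other than the brightest come from the same fit over all 54613 probe sets. MAS5 subtracts mismatch signal, which makes dim probe sets noisy.

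The members and lists were chosen with earlier results of these data known. Named are all members and their probe sets, MEIS1, the 4 tested genes nearest to SIX3 and to EYA1, and from each list every gene past the threshold plus the 2 largest other changes; marker genes and further neighbours of SIX5 were named after their values were seen. Neighbours are the 3 nearest RefSeq entries of any kind on each side.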

Additional observations from a re-analysis of the deposited data

How the results depend on the processing

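No paired analysis was possible because each group holds 1 array. The number of tested genes past the threshold, 415, was 21 without the filter on low signals, 22 with eBayes without trend and 230 with the spike-in level as a covariate, and 190 to 416 with 1 array left out (190 without 0 h, 254 without 96 h, 240 without 192 h). With array medians set equal the median change of all genes shifted by -0.11, and 43.8% of 441 calls were higher against 58.1% here. The count of related genes past the threshold, 1, was 0 without the filter and 0 with eBayes without trend, and 0 to 2 with 1 array left out; leaving out 0 h or 192 h gave 0, and leaving out 24 h gave 2, where H2AX joined VEGFC. Of the 9 network genes 4 had a positive change, and 2 with array medians set equal, where SIX2 and SIX4 were slightly negative. The count of the 9 past the threshold, 3, a summary added after seeing the data, was 0 without the filter, 0 with eBayes without trend and 1 to 3 with 1 array left out; EYA4 was not past it when the 24 h or the 96 h array was left out, and EYA1 alone was past it when the 192 h array was. Causes were not tested. Over 14 alternatives SIX3 ranged from 1.36 to 1.97, EYA4 from 0.93 to 2.36, EYA1 from -1.43 to -1.07, EYA2 from -0.76 to -0.41, EYA3 from -0.44 to -0.18, SIX5 from -1.05 to -0.23 and DACH1 from -0.52 to -0.24, with 0 sign changes in each of these 7 genes. SIX4 ranged from -0.30 to 0.46 and SIX2 from -0.07 to 0.10. Dim probe sets, 8 of the 23, limit what can be said of single transcripts.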

Other observations

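EYA4 was matched to other genes by course after its values were seen. The 4 nearest tested genes were SOX9, a transcription factor of neural crest and cartilage, at a root mean square log2 difference of 0.12, the zinc finger gene HIVEP2 at 0.15, the homeobox gene CUX2 at 0.24 and the tetraspanin gene TSPAN7 at 0.24, and 2 genes lay within 0.2. SOX9 read 130.1, 138.7, 122.5, 278.0 and 413.5 at 0, 24, 48, 96 and 192 h, with the arrays up to 48 h close together as for EYA4. The match was by course, so this likeness follows from the choice. TSPAN7 read 139.8, 116.4, 141.3, 222.7 and 382.8. HIVEP2 and CUX2 were dim up to 48 h, at 12.4 to 15.0 and 14.7 to 19.2, and read 54.5 and 78.1 at 192 h.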
